A study of Mus musculus with 2 samples.

Results

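The Mir23-27-24 genes are 6 miRNA genes in 2 paralogous clusters of 3: Mir23a, Mir27a and Mir24-2 on chromosome 8, and Mir23b, Mir27b and Mir24-1 on chromosome 13. They were taken by symbol from the 2202 miRNA genes of the deposited count tables, and all 6 were found. The tables come from small RNA libraries of the gastrocnemius, a calf muscle of the hindlimb, from 2 male B6CASTF1/J mice aged 10 days, the F1 hybrid of C57BL/6J and CAST/EiJ. The animals are numbered separately and share 1 donor entry in the labels, and no treatment or other group is named. Whole muscle was sampled, so fewer cells of a type and less miRNA per cell cannot be told apart. The data therefore show at what level each gene was counted in young muscle, how the 2 clusters compare and how closely the 2 libraries match.

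miRNAs are cut from hairpins in a longer primary transcript, loaded into Argonaute and guided to messenger RNAs mainly by their seed. The hairpins of a Mir23-27-24 cluster are processed from a common primary transcript. In muscle, miR-23a is known to repress the ubiquitin ligase genes of muscle wasting, Fbxo32 and Trim63. miR-27 is known to repress Pax3, a transcription factor of muscle progenitors, and Mstn, which encodes the growth inhibitor myostatin. miR-24 has been linked to myoblast differentiation, and both clusters are also known from endothelial cells, where they act in vessel growth.

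The sequences are shown because they decide which reads can be given to 1 gene. All 6 hairpins and 11 mature entries were found in the RefSeq miRNA table (GRCm38.p6), and the mature sequences are printed 5′ to 3′ with the seed, bases 2 to 8, in capitals. The Mir23 arms are the following, without miR-23b-3p, which has no mature entry there and is not printed or compared.
miR-23a-3p: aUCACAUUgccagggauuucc
miR-23a-5p: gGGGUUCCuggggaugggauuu
miR-23b-5p: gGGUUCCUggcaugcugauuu
The Mir27 arms are these.
miR-27a-3p: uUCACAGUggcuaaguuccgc
miR-27b-3p: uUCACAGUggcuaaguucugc
miR-27a-5p: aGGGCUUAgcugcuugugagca
miR-27b-5p: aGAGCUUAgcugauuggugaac
The Mir24 arms are these, with 1 3p sequence for both genes.
miR-24-3p: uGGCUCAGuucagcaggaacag
miR-24-1-5p: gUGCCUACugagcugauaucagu
miR-24-2-5p: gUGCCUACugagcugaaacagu

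miR-27a-3p and miR-27b-3p shared their seed and differed by 1 of 21 bases, C19U, with the base of miR-27a-3p first and positions counted from the 5′ end. Their 5p arms differed at 8 of 22 positions, 1 of them in the seed (G3A). The 5p arms of Mir24-2 and Mir24-1 were identical over bases 1 to 16 and differed at 5 of the first 22 positions, the first being A17U. The 3p sequence of Mir24 was the same at both loci. No other mature entry among the 1738 in the table carried the seed of miR-27-3p or of the Mir24 5p arms. The seed of miR-24-3p was also that of miR-5124b, miR-6369, miR-6410 and miR-6413, whose genes had 0 counts in both libraries, which allows up to 0.75 counts per 1000000 assigned counts (CPM) in replicate 1 and 0.593 CPM in replicate 2.

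A read with the whole sequence of miR-24-3p matches both Mir24 hairpins, and reads that match several genomic places were counted for no gene in these tables. The 2 hairpins are printed with miR-24-3p in capitals, and only bases outside it that differ between the hairpins can place a read.
Mir24-2: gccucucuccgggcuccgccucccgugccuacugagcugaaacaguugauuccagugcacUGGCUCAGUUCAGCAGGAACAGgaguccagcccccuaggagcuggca
Mir24-1: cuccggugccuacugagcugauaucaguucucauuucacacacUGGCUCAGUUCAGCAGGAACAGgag
These hairpins had 28 nt in common in 1 run, against 20 nt for Mir23a with Mir23b and 20 nt for Mir27a with Mir27b. Of the mature sequences, 18 of 21 bases of miR-23a-3p lay in 1 run in the Mir23b hairpin, and 18 of 21 bases of miR-27a-3p in that of Mir27b, in each case bases 1 to 18. The 5p arms of Mir23 and Mir27 shared at most 10 nt with the paralog. In the hairpins of the 2200 other miRNA genes, no mature sequence printed above for the 6 genes had a run above 13 nt. The tables count hairpins and do not separate arms.

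The clusters differ in layout and in host. Coordinates are 1-based, on mm10, and all 6 genes lie on the plus strand. Mir23a (ENSMUSG00000065611.1) is at chr8:84208518-84208592, Mir27a (ENSMUSG00000065444.1) at chr8:84208672-84208758 and Mir24-2 (ENSMUSG00000065541.1) at chr8:84208815-84208921. They span 404 nt with no annotated host gene, except that the last 2 nt of Mir24-2 overlap the first exon of the long non-coding RNA Gm26532. Mir23b (ENSMUSG00000065599.2) is at chr13:63300484-63300557, Mir27b (ENSMUSG00000065475.2) at chr13:63300712-63300784 and Mir24-1 (ENSMUSG00000105904.1) at chr13:63301208-63301275. They span 792 nt within the protein-coding gene 2010111I01Rik. Mir23b overlaps no exon of that gene, Mir27b lies in an exon of 1 of its annotated transcripts and Mir24-1 overlaps exons of 4. On the minus strand, Mir3074-2 overlaps Mir24-2 and Mir3074-1 overlaps Mir24-1. In 1 run, 20 bases of their common miR-3074-5p are complementary to miR-24-3p.

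Replicate 1 held 3999172 reads assigned to miRNA genes and replicate 2 held 5062714, and these totals are the base of the CPM. The muscle miRNA Mir206 stood at 100599 and 87446 CPM, and each of the 5 listed skeletal muscle markers had 10 or more counts per library. Of the 6 listed neuronal markers, Mir124a-2, Mir124a-3 and Mir9-2 had 0 counts, and Mir124a-1, Mir9-1 and Mir9-3 had at most 4 counts in a library. These are numbered copies of Mir124a and Mir9, and reads that match several copies are in no count. The low counts therefore do not show that neuronal miRNAs were absent. In both libraries, 47.0% and 48.0% of all reads matched several places and belong to no gene. The libraries differed by more than counting error, with a chi-square statistic of 85.7 per degree of freedom over 332 genes. This statistic cannot tell separate animals from separate library preparations. Intervals are exact (Clopper-Pearson, 95%), and since the reads carry no molecular identifiers they cover counting error only.

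The 6 genes together took 5.57% of the assigned counts in replicate 1 and 5.83% in replicate 2. Of this, 95.6% ± 0.40 (SD, n = 2) came from the Mir23 genes, 4.24% ± 0.37 from the Mir27 genes and 0.143% ± 0.022 from the Mir24 genes. In both clusters and both libraries, the order of the counts was that of the hairpins along the chromosome, Mir23 first and Mir24 last. Reads that match both Mir24 genes are in neither count, so the last place of Mir24 is not one of miRNA levels.

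**Figure D1:**
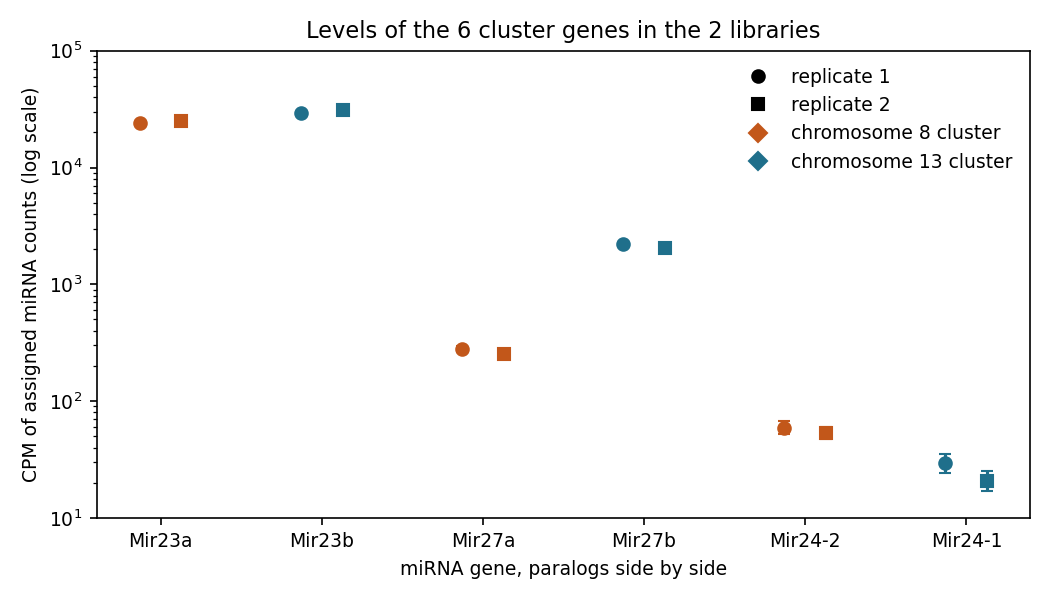
Levels of the 6 genes in CPM on a log axis, with paralogs side by side, circles for replicate 1, squares for replicate 2 and bars for the exact 95% counting interval. Mir23a and Mir23b lie between 23877 and 31008 CPM, and both Mir24 genes lie below 60 CPM.

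The Mir23 genes had the highest levels of the 6. Mir23b, the chromosome 13 copy, had 116794 counts in replicate 1 and 156987 in replicate 2, or 29205 CPM (interval 29040 to 29370) and 31008 CPM (30858 to 31160). Mir23a, the chromosome 8 copy, had 95487 and 125823 counts, or 23877 CPM (23727 to 24027) and 24853 CPM (24717 to 24989). Among all 2202 genes, Mir23b ranked 10 and 9 in replicates 1 and 2, and Mir23a ranked 12 in both. Reads that match several genomic places are in no count. Ranks here and below are thus among counted reads, not among miRNA levels. The copies did not overlap, since the lowest Mir23b value lay above the highest Mir23a value.

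The Mir27 genes had much lower levels, and here the copies lay far apart. Mir27b, next to Mir23b, had 8923 and 10446 counts, or 2231 CPM (2185 to 2278) and 2063 CPM (2024 to 2103), at ranks 56 and 58. Mir27a, next to Mir23a, had 1107 and 1276 counts, or 277 CPM (261 to 294) and 252 CPM (238 to 266), at ranks 125 and 129. Both Mir27 genes had the higher CPM in replicate 1, while both Mir23 genes had it in replicate 2.

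The Mir24 genes were the least counted, and their order was turned around. Mir24-2, on chromosome 8, had 237 and 271 counts, or 59.3 CPM (52.0 to 67.3) and 53.5 CPM (47.3 to 60.3). Mir24-1, on chromosome 13, had 117 and 105 counts, or 29.3 CPM (24.2 to 35.1) and 20.7 CPM (17.0 to 25.1). The chromosome 8 copy was thus the higher of this pair in both libraries. A read with exactly the miR-24-3p sequence matches both loci and is in neither count, so these values are not a level of miR-24-3p.

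**Figure D2:**
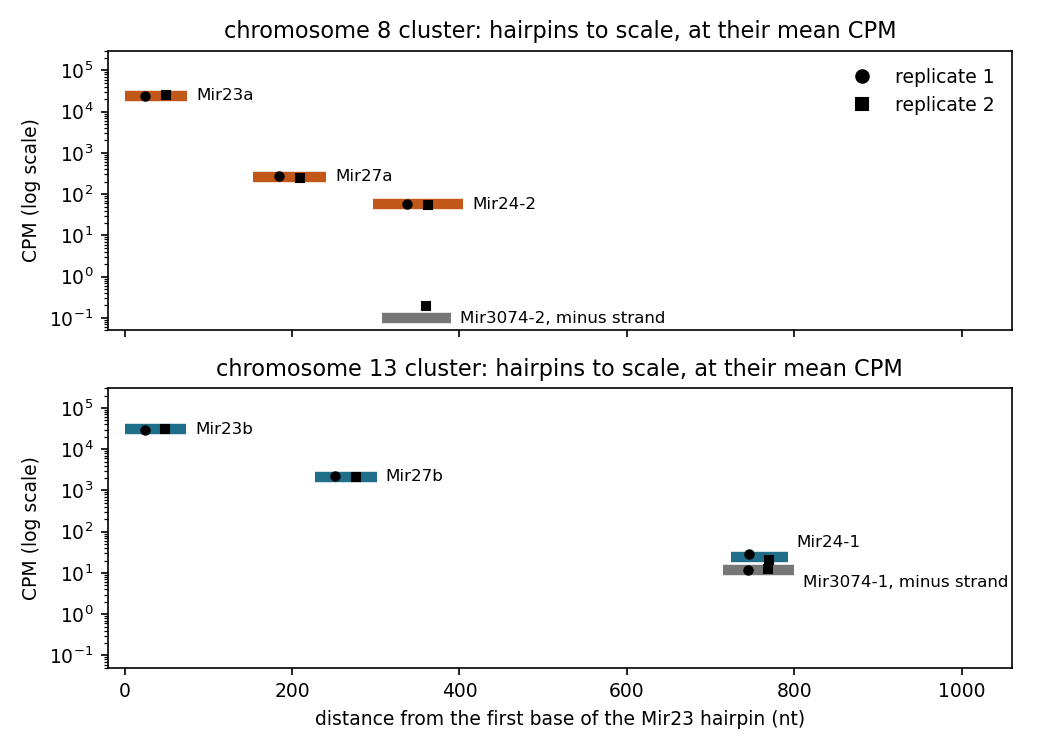
Hairpins of the chromosome 8 (top) and chromosome 13 (bottom) clusters drawn to scale by distance in nt from the first base of the Mir23 hairpin, each at its mean CPM on a log axis, with circles for replicate 1 and squares for replicate 2 (no symbol for 0 counts). Grey hairpins lie on the minus strand. The counted level is lower at each following hairpin of a cluster, and the step from Mir23a to Mir27a is larger than that from Mir23b to Mir27b. Reads with the mature sequence common to the last plus-strand hairpins of both clusters are in no count.

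From the highest to the lowest, the mean levels were those of Mir23b, Mir23a, Mir27b, Mir27a, Mir24-2 and Mir24-1, and each neighbour in this order differed by more than the SDs of both. The smallest step was that from Mir23b to Mir23a, 1.22-fold in replicate 1 and 1.25-fold in replicate 2, and that from Mir23a to Mir27b was 10.7-fold and 12.05-fold. With 2 libraries, a two-sided sign-flip permutation test cannot go below p = 0.5, so the order is a description of counted reads.

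Within a cluster, the step from Mir23 to Mir27 was steeper on chromosome 8. Mir23a exceeded Mir27a 86.3-fold in replicate 1 (interval 81.3 to 91.6) and 98.6-fold in replicate 2 (93.3 to 104). Mir23b exceeded Mir27b 13.1-fold (12.8 to 13.4) and 15.0-fold (14.7 to 15.3). In both clusters the ratio was higher in replicate 2, by a factor of 1.14 on chromosome 8 and of 1.15 on chromosome 13.

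By counts, the step from Mir27 to Mir24 was the steeper one on chromosome 13. Mir27b exceeded Mir24-1 76.3-fold and 99.5-fold, with overlapping intervals in the 2 libraries (63.6 to 92.3 and 82.1 to 122). Mir27a exceeded Mir24-2 4.67-fold and 4.71-fold. Reads with the mature sequence shared by both Mir24 genes are in neither count, while the Mir27 genes share no whole mature sequence. These steps therefore set unlike counts side by side and do not compare miRNA levels. Hairpins differ in annotated length, from 68 nt for Mir24-1 to 107 nt for Mir24-2. Per nucleotide of hairpin, the step from Mir23a to Mir27a was 100.1-fold and 114-fold and that from Mir23b to Mir27b 12.9-fold and 14.8-fold.

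By counts, the balance of the clusters was nearly the same in both libraries and differed between the 3 pairs. The chromosome 13 cluster gave 56.5% of the counts of the 6 genes in replicate 1 (interval 56.3 to 56.7) and 56.8% in replicate 2 (56.6 to 57.0). Mir23b gave 55.0% (54.8 to 55.2) and 55.5% (55.3 to 55.7) of its pair. Mir27b gave 89.0% and 89.1% of its pair, so that it exceeded Mir27a 8.06-fold (7.57 to 8.59) and 8.19-fold (7.72 to 8.68). Mir24-1 gave 33.1% (28.2 to 38.2) and 27.9% (23.4 to 32.8) of its pair. The ranges of the 3 pairs did not overlap. Per nucleotide of hairpin, the share of Mir24-1 was 40.8%, still below that of Mir24-2. Reads with the miR-24-3p sequence common to both Mir24 genes are in neither count. The share of Mir24-1 is therefore not a balance of miRNA levels and is not like those of the other pairs.

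**Figure D3:**
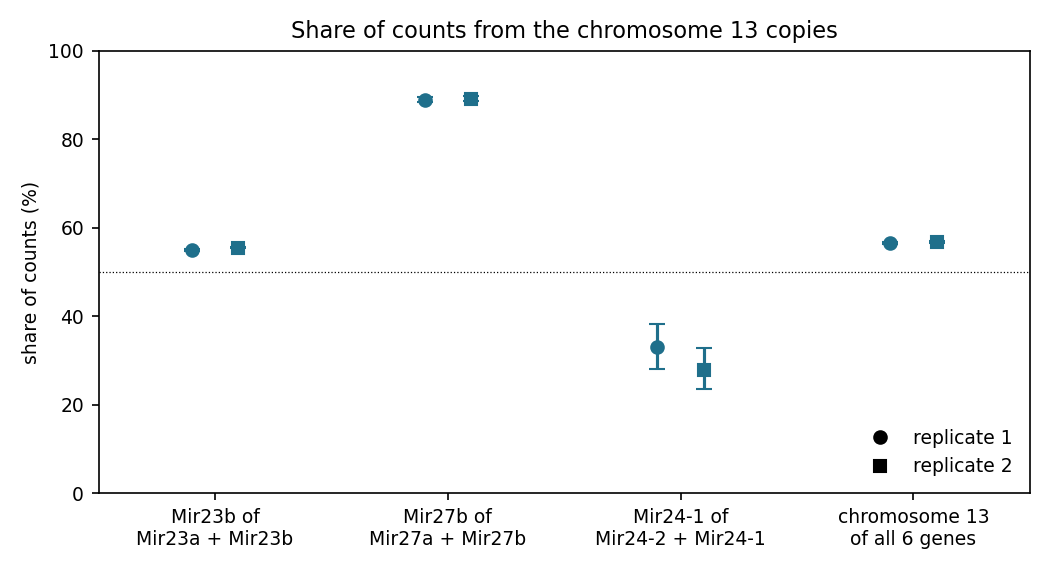
Share of counts, in percent, that the chromosome 13 copy holds in each pair and in all 6 genes, with circles for replicate 1, squares for replicate 2, bars for the exact 95% counting interval and a dotted line at equal shares. Mir27b holds 89.0% and 89.1% of its pair, Mir23b 55.0% and 55.5%, and Mir24-1 33.1% and 27.9%. Reads with the mature sequence common to both Mir24 genes are in neither count, so the Mir24-1 share is not one of miRNA levels.

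Strand mattered at the Mir24 genes alone. Mir23a, Mir27a, Mir23b and Mir27b had 0 reads on the opposite strand, and their counts were the same with and without regard to strand. At Mir24-2, the opposite strand, which is that of Mir3074-2, had 0 and 1 reads. At Mir24-1 it had 47 and 62 reads, which are the counts of Mir3074-1. Of the reads on either strand there, 71.3% (interval 63.8 to 78.1) and 62.9% (55.1 to 70.2) were those of Mir24-1. In the column that ignores strand, Mir24-1, Mir24-2 and both Mir3074 genes had 0 counts, because reads in overlapping genes are ambiguous there. That column thus drops all 401 and 439 reads of these 4 genes.

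The Mir24 genes were set beside 17 other pairs of genes that encode 1 miRNA at 2 loci. For all 15 pairs with mature entries for both copies, at least 1 mature sequence is the same at both. The summed level of Mir24-1 and Mir24-2 was 88.5 CPM in replicate 1 and 74.3 CPM in replicate 2, which is rank 9 of 18 in both libraries, and 8 pairs had a higher mean. The 3 highest were Mir16-1 with Mir16-2 (874 ± 35 CPM), Mir181b-1 with Mir181b-2 (604 ± 53 CPM) and Mir128-1 with Mir128-2 (519 ± 13 CPM). The median of the 17 was 28.6 CPM. All of these sums lie below the level of Mir27b. The part of reads that match several places in these values was not tested.

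**Figure D4:**
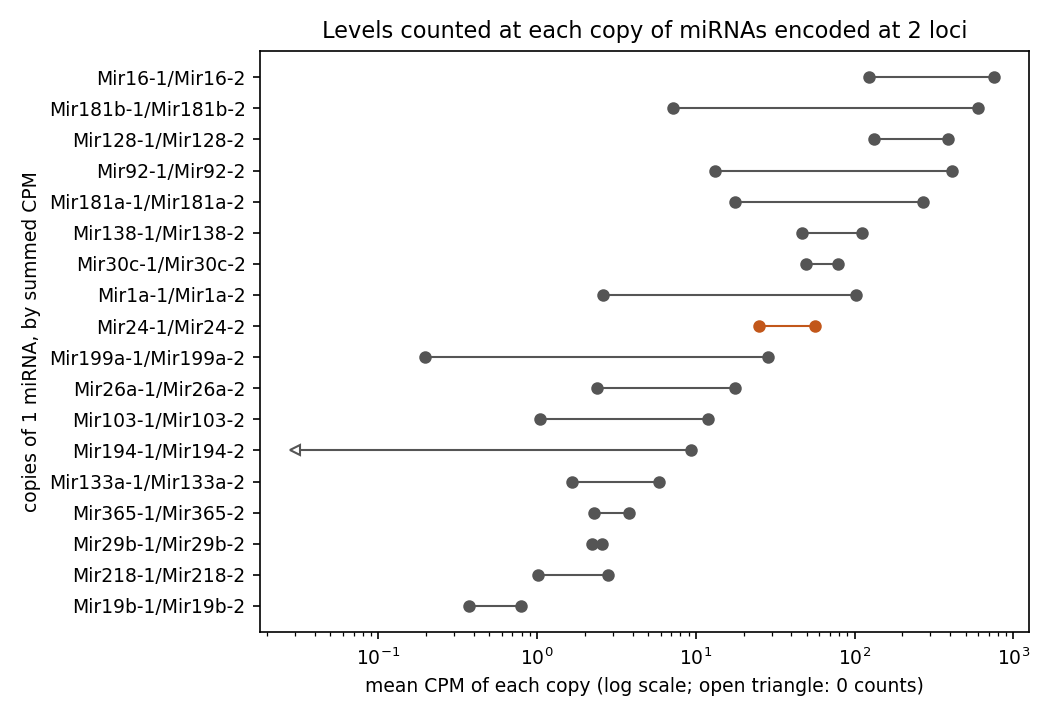
Mean CPM over the 2 libraries, on a log axis, of each copy of 18 miRNAs encoded at 2 loci, ordered by summed CPM. Each line joins the 2 copies of a pair, an open triangle marks 0 counts and the Mir24 pair is in orange. Mir24-1 and Mir24-2 stand at rank 9, at 25.0 and 56.4 CPM.

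Between the libraries, the Mir23 genes were slightly higher in replicate 2 and the other 4 genes did not pass the test. The two-sided exact binomial test with Benjamini-Hochberg adjustment over 332 genes covers counting error only and compares these libraries, not conditions. It called 39.5% of all tested genes, 27.1% as higher in replicate 2 and 12.3% as lower, against 2 of the 6 cluster genes, both higher. With so high a background, 2 of 6 is no result about the clusters. The median log2 ratio was -0.05 over the 6 genes and 0.02 over all 332.

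On the log2 scale, with library totals scaled by the trimmed mean of M-values (TMM), the ratio of replicate 2 to replicate 1 was 0.16 for Mir23b (interval 0.15 to 0.17, exact binomial adjusted p = 2.96e-175), a 1.12-fold difference. For Mir23a it was 0.13 (interval 0.12 to 0.14, exact binomial adjusted p = 1.98e-95), or 1.09-fold. With plain library totals both passed with smaller ratios, 0.09 for Mir23b and 0.06 for Mir23a. The SD of the log2 ratio over all tested genes was 0.41, taken on log2(CPM + 1) without TMM and including genes with few counts. With TMM, the median absolute log2 ratio over all tested genes was 0.157, close to that of Mir23b. By absolute ratio, counted from the smallest, Mir23b ranked 167 and Mir23a 143 of the 332 tested genes. The counting intervals do not include the variation between animals.

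For the other genes, the log2 ratio was -0.04 for Mir27b (interval -0.08 to -0.00071, exact binomial adjusted p = 0.102), -0.06 for Mir27a (-0.18 to 0.05, adjusted p = 0.42), -0.08 for Mir24-2 (-0.33 to 0.18, adjusted p = 0.697) and -0.43 for Mir24-1 (-0.82 to -0.03, adjusted p = 0.0725). Mir27b was lower in replicate 2 with plain library totals (log2 -0.11, exact binomial adjusted p = 3.47e-07), with DESeq2 size factors (log2 -0.06, adjusted p = 0.0169) and in the unstranded column (log2 -0.05, adjusted p = 0.0486). So was Mir24-1 with plain totals (log2 -0.50, adjusted p = 0.0305). By plain totals the test called 42.5% of all tested genes, 18.7% as higher and 23.8% as lower, and by DESeq2 size factors 38.0%, with 23.8% higher and 14.2% lower. In the unstranded column it called 118 of 304 tested genes, 76 as higher and 42 as lower. The exact test of edgeR adds the spread between the libraries to the counting error and called 1.81% of all tested genes. None of the 6 genes passed it, and none had an unadjusted p under 0.05 in it. It sets 1 library against 1, with the spread taken from the same pair, so that it says nothing about whether the genes differ between animals.

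**Figure D5:**
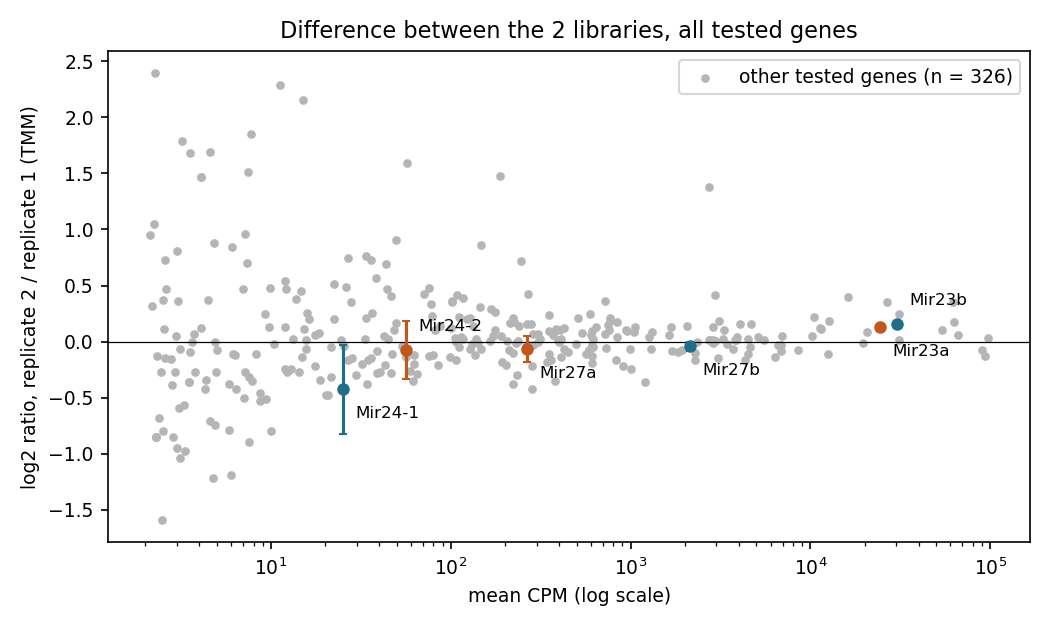
Log2 ratio of replicate 2 to replicate 1 with TMM scaling against mean CPM on a log axis for the 332 tested genes. Grey points are the other genes, orange and blue points the chromosome 8 and chromosome 13 genes with their exact 95% counting intervals. The 6 genes lie from -0.43 (Mir24-1) to 0.16 (Mir23b), within the cloud of the other genes.

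Marker levels also differed between the libraries. The endothelial pair Mir126a and Mir126b summed to 55784 CPM in replicate 1 and 67925 CPM in replicate 2, nearly all of it Mir126a. Of the smooth muscle markers, Mir143 had 23930 and 29124 CPM and Mir145a 641 and 589 CPM. The erythroid pair Mir451a and Mir144 summed to 1680 and 4088 CPM, and the hepatocyte marker Mir122 had 103 and 272 CPM. Of the 5 skeletal muscle markers, Mir206 had 100599 and 87446 CPM and Mir133b 43.5 and 34.2 CPM, while Mir1a-2 had 91.5 and 112 CPM, Mir486 205 and 219 CPM and Mir499 192 and 302 CPM. Of the 5 leukocyte markers, Mir142 had 70.0 and 84.3 CPM and Mir155 211 and 232 CPM. Mir150 had 115 and 106 CPM and Mir223 26.5 and 24.5 CPM, while Mir142b had 0 counts. Together the 5 leukocyte markers summed to 423 and 447 CPM. The part of these cells in the Mir23 difference was not tested.

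By distance on log2(CPM + 1) over the 2 libraries, the genes nearest to Mir23b were Mir335, of the imprinted Mest locus, and Mir379. Those nearest to Mir23a were the smooth muscle Mir143 (23930 and 29124 CPM) and Mirlet7d. Mir27b was nearest to Mir409 and Mir149, and Mir27a to Mir666 (276 and 251 CPM) and Mir667. Mir24-2 was nearest to Mir193b and Mir34c, and Mir24-1 to Mir182 and Mir223. These are likenesses of level in 2 samples of 1 kind, and no member was among the 2 nearest of another.

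Among 23 other miRNAs of muscle wasting, muscle growth and vessels, the Mir23 genes lay near the top by counts. The list includes both copies of Mir1a and of Mir133a, and reads that match several places are in none of these counts. The place of the Mir23 genes is thus one among counted reads, not among miRNA levels. Of this list Mir206 (94022 ± 9301 CPM) and the endothelial Mir126a (61854 ± 8585 CPM) had a higher mean than Mir23b, and Mir143 (26527 ± 3672 CPM) lay between Mir23b and Mir23a. Mir322, of the X-linked cluster studied in muscle differentiation, had 16247 ± 2574 CPM, Mir351 of the same cluster 3874 ± 101 CPM, and Mir130a 3690 ± 244 CPM. Mir27b lay below Mir130a and above all the remaining listed genes. Of the 21 listed genes tested between the libraries, 7 were higher in replicate 2, 3 were lower and 11 did not pass the exact binomial test, which called 27.1% of all tested genes as higher and 12.3% as lower. The median log2 ratio was 0.02, as over all tested genes. The edgeR exact test called none of the 21, and 1 had an unadjusted p under 0.05 in it.

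The chromosome 13 hairpin had the lower GC content in each of the 3 pairs. It was 48.6% for Mir23b and 56.0% for Mir23a, and 47.9% for Mir27b and 59.8% for Mir27a. It was 51.5% for Mir24-1 and 61.7% for Mir24-2. The copy with the lower GC content had the higher level in the Mir23 and Mir27 pairs and the lower count in the Mir24 pair. Reads with the miR-24-3p sequence are in neither Mir24 count, so the Mir24 pair does not compare miRNA levels. The predicted minimum free energy per nucleotide was -0.54 kcal/mol for Mir27b and from -0.46 to -0.39 kcal/mol for the other 5 hairpins.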

How the data were processed

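Small RNA libraries of 2 samples in 1 group were analysed. The authors deposited raw read counts per miRNA gene on mm10 with GENCODE M21, per the metadata text beside each table. Aligner and counter: not given in the sources used here. Of 3 count columns, that of sense-strand reads was used. The 4 summary rows (58.7% and 60.7% of reads) were left out of library totals. Symbols and coordinates came from M21. Tests covered genes that averaged 10 or more counts, with an exact binomial test on TMM-scaled totals (edgeR 4.0.16), called at an adjusted p of 0.05 and tested on simulated data. Simulated counts held counting error only, without the further spread between these libraries, so they do not show how the test behaves under that spread. A two-sided test of 2 libraries of 1 group is no test between conditions. A count of 0 allows up to 3 counts. Levels were compared as CPM, and likeness on log2(CPM + 1). Hairpins were aligned with biopython 1.88 and folded with ViennaRNA 2.7.2. Other software was Python 3.11.15, scipy 1.17.1, R 4.3.3 and DESeq2 1.42.0. Named genes are the 6 members, their opposite-strand partners, the 2 nearest genes of each, the 3 highest pairs encoded at 2 loci and the 6 highest genes of the muscle and vessel list. Genes with the seed of miR-24-3p, and markers of the cell types, are named besides. The members and lists were chosen with earlier results of these data known. Alternatives were other scalings, count minimums, pseudocounts and denominators, the unstranded column, hairpin length, the negative binomial exact test and each library alone.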

Additional observations from a re-analysis of the deposited data

Results flagged for a closer look

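Reads that match several genomic places, which enter no gene count, were 47.0% of replicate 1 and 48.0% of replicate 2. They are named here because they lie outside the gene counts and far exceed the 3 reads that a count of 0 allows. How many of them carry miR-24-3p was not tested. The strand opposite to Mir24-1 held 47 reads in replicate 1 and 62 in replicate 2, also above 3 reads.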

How the results depend on the processing

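The order of the 6 genes in CPM was the same in each library alone. Over the libraries alone, the summed level ranged from 55678 to 58251 CPM. It was 69422 CPM in the unstranded column, where both Mir24 genes had 0 counts, and 22943 CPM with all reads as denominator, since both change the total. The share of chromosome 13 was 57.1% per nucleotide of hairpin. Of the 6 cluster genes, 2 passed with TMM, 3 with DESeq2 size factors and 4 with plain totals (2 higher, 2 lower). Over all 332 tested genes, 131 passed with TMM, 126 with DESeq2 size factors and 141 with plain totals. In the unstranded column 3 of 4 cluster genes passed, against 118 of the 304 genes tested there. With so high a background, these counts are no result about the clusters. None of the 6 passed edgeR's negative binomial exact test, which called 6 genes in all and gave 23 genes an unadjusted p under 0.05. Plain totals called 62 genes as higher and 79 as lower in replicate 2, against 90 and 41 with TMM. No log2 ratio of the 6 genes changed sign under these scalings and tests. All 12 nearest genes were the same with other pseudocounts and a higher count minimum. No paired analysis was possible because there is 1 group. With 105 to 271 counts per library, the Mir24 genes have the widest intervals of the log2 ratio among the 6.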
